A study of Mus musculus with 8 samples.

Results

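Protease-activated receptors and Toll-like receptors are the main candidate sensors through which the proteases, lipids and microbial products carried by an inhaled allergen could act on cells. Described here are 10 genes of these families in mouse vagal ganglia: the protease-activated receptor genes F2r, F2rl1, F2rl2 and F2rl3, the Toll-like receptor genes Tlr2, Tlr3, Tlr4 and Tlr5, the co-receptor gene Cd14 and the adaptor gene Myd88. They were chosen by symbol, each matched 1 row of the count table, and the table held 55335 genes. RNA was sequenced from ganglia of wild-type (WT) mice given HDM (commonly short for house dust mite) and of WT mice given saline, in 4 libraries of each group. Ganglia were taken 1.5 h after challenge number 4, and 6 to 8 ganglia from 3 to 4 mice were pooled for each library, so that replicates are pools and not animals. Both groups share the genotype and the challenge schedule, and the sources used here do not give the strain, age or sex of the mice. The title of the series concerns Vip+ vagal neurons and allergen-induced responses, and the comparison asks which transcripts differ in whole ganglia soon after allergen.

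Protease-activated receptors are G protein-coupled receptors that are switched on when a protease cuts their outer N-terminal end and the new end folds back as a tethered ligand. PAR1 (F2r), PAR3 (F2rl2) and PAR4 (F2rl3) are cut by thrombin, and PAR2 (F2rl1) by trypsin-like proteases such as mast cell tryptase and by proteases of mites. Toll-like receptors recognise microbial molecules and, except for TLR3, signal through the adaptor MyD88. TLR4 binds lipopolysaccharide together with CD14 and the protein MD-2, which a major mite allergen resembles in structure.

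Library totals were 24.0 to 26.7 mega-counts in HDM and 26.9 to 31.3 mega-counts in saline. Levels are CPM, counts per mega-count of a library total scaled by TMM factors, or, to compare genes, RPKM, the same value divided by exonic length in kilobases. A set of 8 vagal sensory neuron markers, which include Slc17a6 and P2rx3, were all detected and summed to 7034 to 7559 CPM in HDM and 6698 to 6991 CPM in saline. The tissue was mixed: 6 myelinating Schwann cell markers summed to 2329 to 2553 CPM in HDM and 2400.0 to 2953 CPM in saline, and 12 macrophage markers to 72.4 to 91.2 CPM and 70.1 to 111 CPM. One library stood apart in these lists. Saline replicate 1 had 246 CPM of erythrocyte markers, against 45.6 to 77.7 CPM in the HDM libraries and 73.0 to 76.2 CPM in the other saline libraries. It held the highest macrophage, monocyte and neutrophil, mast cell, T and B cell, platelet, endothelial, pericyte and smooth muscle, fibroblast and Schwann cell sums. Its sensory neuron and sympathetic neuron sums were the lowest of all libraries. HDM replicate 4 had 779 CPM of sympathetic neuron markers, against 286 to 335 CPM in the other HDM libraries and 160.4 to 359 CPM in saline.

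The levels of the 10 genes spanned about 3 orders of magnitude. F2r averaged 99.3 RPKM (SD 9.62, n = 8 libraries), above 98.1% of the 17618 tested genes, and F2rl2 54.7 RPKM (SD 3.74), above 95.8% of them. The other genes were far lower: Myd88 had 4.91 RPKM, Tlr3 2.29, Tlr4 1.09, F2rl3 0.867, Cd14 0.698, Tlr5 0.309, Tlr2 0.243 and F2rl1 0.0974 RPKM. In this order the 8-library ranges of neighbours overlapped between Tlr4 and F2rl3, between F2rl3 and Cd14 and between Tlr5 and Tlr2. The first gene of each pair was the higher in 7, 6 and 4 of 8 libraries, and the pairs were not tested. All other neighbours kept their order in 8 of 8 libraries without overlap. F2rl2 exceeded the next gene, Myd88, 11.1-fold.

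**Figure D1:**
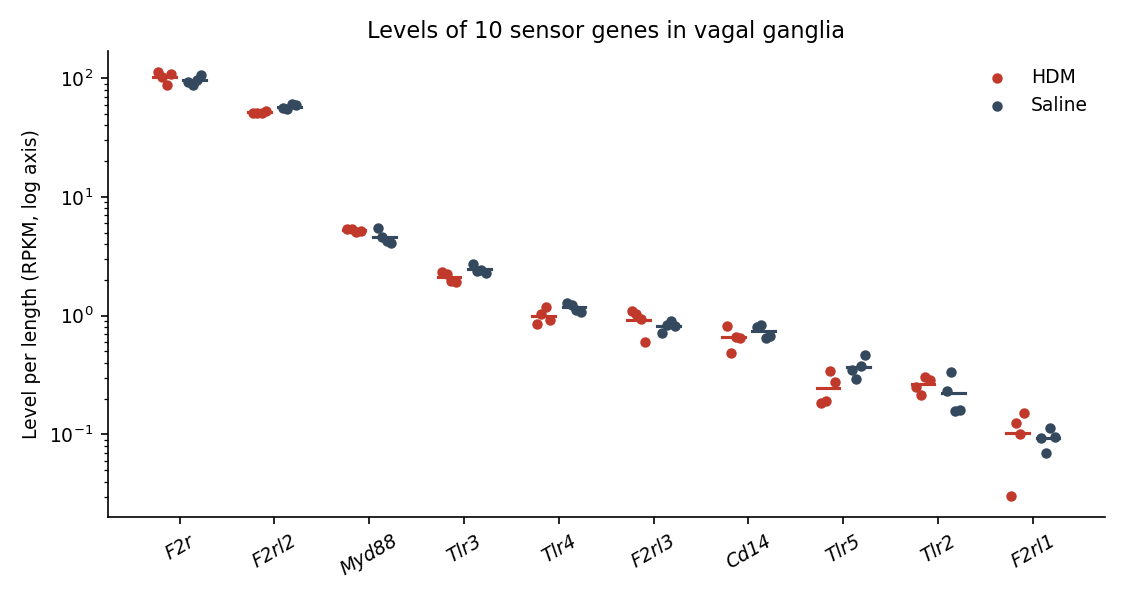
Level per length (RPKM, log axis) of the 10 genes, ordered by their mean over 8 libraries. Points are libraries, HDM left of saline, and bars are group means (n = 4 each). F2r and F2rl2 lie near 99.3 and 54.7 RPKM, and every other gene below 6 RPKM.

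F2rl1, F2r and F2rl2 are neighbours on chromosome 13 (GRCm38, 95511732 to 95525227, 95601803 to 95618487 and 95696853 to 95702739), within 191 kb, and F2r and F2rl1 lie on the minus strand and F2rl2 on the plus strand. The first of them was nearly silent in the ganglion while the other two ranked in the top 5% of tested genes. F2rl2 lies within the span of Iqgap2, a gene on the other strand, and shares no exonic base with it. The promoters of the abundant pair are shown because their levels set the pattern of the family, and that of Tlr3 because it was the highest of the Toll-like receptors. Each runs from 250 bases before to 50 bases after the gene start of RefSeq on GRCm38.p6, 5′ to 3′ on the gene's strand. Motif matches are in capitals. The RefSeq start can differ from that of the counted gene. The Tlr3 window lies wholly within the counted span of the gene (chromosome 8, 45395665 to 45411080).

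F2r, chr13:95618417-95618716, minus strand: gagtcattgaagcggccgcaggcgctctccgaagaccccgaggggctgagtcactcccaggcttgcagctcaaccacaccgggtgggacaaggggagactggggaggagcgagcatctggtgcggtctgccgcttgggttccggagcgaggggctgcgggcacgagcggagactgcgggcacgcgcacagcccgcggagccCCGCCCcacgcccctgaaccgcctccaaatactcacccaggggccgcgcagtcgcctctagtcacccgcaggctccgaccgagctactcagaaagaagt
F2rl2, chr13:95696670-95696969, plus strand: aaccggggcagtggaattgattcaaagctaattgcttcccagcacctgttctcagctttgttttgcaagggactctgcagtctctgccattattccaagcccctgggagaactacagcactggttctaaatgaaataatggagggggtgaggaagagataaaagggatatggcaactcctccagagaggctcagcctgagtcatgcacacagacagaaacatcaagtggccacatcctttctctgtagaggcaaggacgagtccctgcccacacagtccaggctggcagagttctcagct
Tlr3, chr8:45410331-45410630, minus strand: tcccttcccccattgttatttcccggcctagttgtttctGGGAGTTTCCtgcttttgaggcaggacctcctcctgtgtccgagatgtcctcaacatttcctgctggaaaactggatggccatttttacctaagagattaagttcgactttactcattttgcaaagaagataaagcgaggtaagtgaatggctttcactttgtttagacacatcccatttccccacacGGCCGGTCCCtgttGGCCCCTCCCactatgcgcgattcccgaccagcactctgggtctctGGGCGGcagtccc

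A total of 4 motifs was searched on both strands: an NF-kB-like motif (GGGNNNNNCC), an interferon-response-like motif (GAAANNGAAA), the GC box (GGGCGG) and the TATA box (TATAAA). Of 32851 RefSeq promoters of this length, 50.8%, 3.44%, 35.7% and 13.6% held a match, and matches may overlap. The abundant pair differed in composition. The F2r promoter held 28 CG dinucleotides, more than 85.8% of promoters, and 1 GC box, whose first base lies 49 bases before the start, whereas the F2rl2 promoter held 2 CG dinucleotides, with fewer in 14.1% of promoters, and none of the 4 motifs. The Tlr3 promoter held 10 CG dinucleotides, 3 NF-kB-like matches and 1 GC box. Of the 7 genes whose promoters were searched, Myd88 alone held an interferon-response-like match. The Myd88 window, like that of Tlr3, lies wholly within the counted span of its gene.

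**Figure D2:**
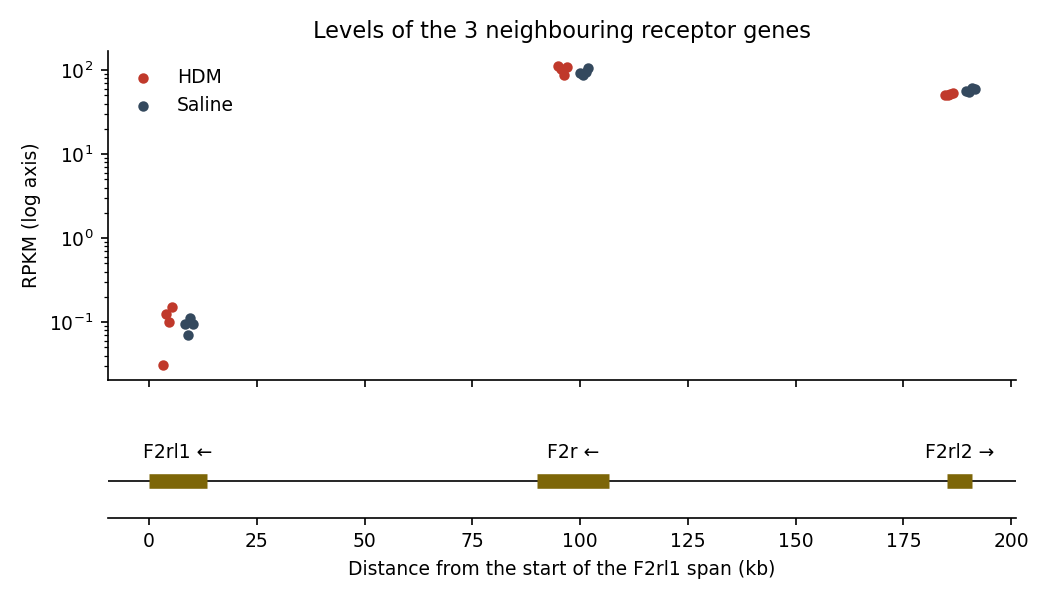
The 3 neighbouring protease-activated receptor genes of chromosome 13, drawn to scale by distance from the start of the F2rl1 span (lower panel, arrows give the strand), with their level in each library (upper panel, RPKM, log axis, HDM left of saline). F2r and F2rl2 lie far above F2rl1, whose libraries run from 0.0305 to 0.152 RPKM.

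The comparison of HDM with saline used the quasi-likelihood test of edgeR over all 17618 genes that passed a filter on low counts, which kept 9 of the 10 genes and removed F2rl1. A gene was called at an adjusted p (Benjamini-Hochberg) under 0.05. Of the 9 tested genes 0 were called in edgeR, against 1.38% of all tested genes, and 3 had an unadjusted p under 0.05, against 18.1% of all. DESeq2, which gave no adjusted p for F2rl3, Tlr2, Tlr5 and Cd14, called 1 of the other 5, F2rl2, and limma-voom called 0 of the 9. Of all 17618 tested genes DESeq2 called 871 and limma-voom 214. With the replicate number as a block, which the batch labels allow, edgeR also called 1 of 9, F2rl2 as lower in HDM, against 4.05% of all tested genes called with the block. The log2 fold change was positive in 4 of the 9 and negative in 5. The median of the 9, which is the value of F2rl2, was −0.16, beside −0.0055 for all tested genes.

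F2rl2 (ENSMUSG00000021675) encodes PAR3, which in mouse platelets presents thrombin to PAR4 and signals little by itself. It had 128, 127, 128 and 133 CPM in the HDM libraries, replicates 1 to 4, against 140.4, 137, 151 and 149 CPM in the saline libraries. Every HDM library lay below every saline library, and F2rl2 was the only tested gene of the 9 whose groups did not overlap, where 10.6% of all tested genes did not overlap and 4.39% did so with HDM lower. The means were 129 ± 2.61 CPM in HDM and 144 ± 6.91 CPM in saline (SD, n = 4 each), which is −0.16 on the log2 scale (SE 0.044, 95% interval −0.25 to −0.064). The adjusted p of edgeR was 0.0851, and 0.0433 with the replicate block. Without overlap, HDM was bound to be lower in 4 of 4 batches, which adds nothing further. The log2 fold change of F2rl2 was −0.18 without saline replicate 1 and −0.17 without HDM replicate 4 (adjusted p of edgeR 0.0816 and 0.143). After a correction for transcript GC content, fitted per library, the log2 fold change was −0.12 (adjusted p of edgeR 0.298, and 0.186 once the block was added). The summed neuron markers moved the other way, higher in HDM without overlap, and the Schwann cell and satellite glia markers were lower on average with overlap; their part in the F2rl2 difference was not tested. In ganglia homogenised whole, fewer cells of a type and less RNA per cell cannot be told apart.

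F2r (ENSMUSG00000048376) encodes PAR1, the main thrombin receptor of many cell types. It had 377, 341, 293 and 362 CPM in the HDM libraries, against 309, 293, 320.1 and 355 CPM in the saline libraries. The groups overlapped over nearly their whole range, with the lowest value of both at 293 CPM. Its log2 fold change was 0.10 (SE 0.075, 95% interval −0.059 to 0.26; edgeR adjusted p = 0.502), so the interval spans a 0.960-fold to 1.20-fold level in HDM over saline. Its value ran from 0.053 without HDM replicate 1 to 0.17 without HDM replicate 3. Relative to F2rl2, on the RPKM scale, F2r was 1.71- to 2.20-fold in the HDM libraries and 1.59- to 1.79-fold in the saline libraries. This ratio, which does not depend on library scaling, averaged 1.99 ± 0.205 in HDM and 1.66 ± 0.0919 in saline (SD, n = 4 each), and HDM replicate 3 overlapped the saline range. Together F2r and F2rl2 made up nearly all of the summed RPKM of the 4 receptors, with F2r at 62.6% to 68.3% in HDM and 60.9% to 63.8% in saline.

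F2rl3, the gene of PAR4 (ENSMUSG00000050147, chromosome 8, 72761880 to 72763874), had 2.18, 2.06, 1.87 and 1.21 CPM in the HDM libraries, against 1.44, 1.66, 1.81 and 1.62 CPM in the saline libraries. The groups overlapped, and the HDM group held both the highest and the lowest value (log2 fold change 0.16, SE 0.20, edgeR adjusted p = 0.72). The value was 0.31 without HDM replicate 4 and 0.063 without HDM replicate 1. F2rl1, the gene of PAR2 and the member most often tied to mite proteases, had 2, 9, 7 and 11 counts in the HDM libraries, against 7, 6, 9 and 8 counts in the saline libraries. The groups overlapped, and the lowest HDM library was under the 3 counts that a count of 0 allows. In a fit with no filter its log2 fold change was 0.14 (edgeR adjusted p = 0.925), and a difference was not detectable at this depth. Whether these few counts came from many cells or few cannot be told apart in whole ganglia.

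**Figure D3:**
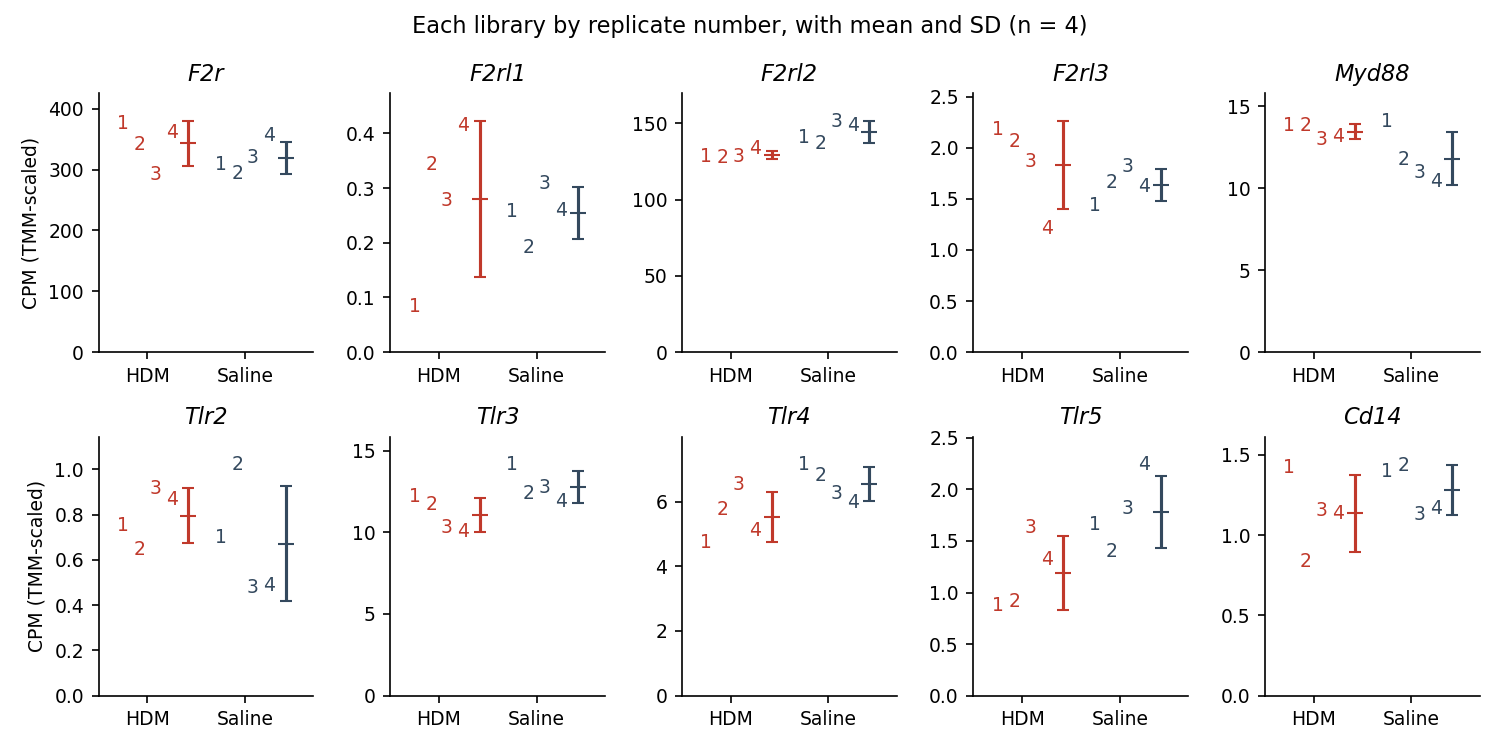
CPM of each gene in each library. Numerals are the replicate numbers, HDM left of saline, and the bars beside them give the mean and SD (n = 4), with every axis starting at 0. F2rl2 alone has groups that do not overlap, at 127 to 133 CPM in HDM and 137 to 151 CPM in saline.

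Tlr3 (ENSMUSG00000031639, chromosome 8, 45395665 to 45411080) encodes the endosomal receptor of double-stranded RNA, which signals through TRIF instead of MyD88. It had 12.2, 11.7, 10.3 and 10.1 CPM in the HDM libraries, against 14.1, 12.4, 12.7 and 11.9 CPM in the saline libraries. HDM was lower in 4 of 4 batches, a count not set against all tested genes, but HDM replicate 1 lay above the lowest saline library. The log2 fold change was −0.21 (SE 0.090, 95% interval −0.40 to −0.013; unadjusted p = 0.0384, edgeR adjusted p = 0.247). Tlr4 (ENSMUSG00000039005, chromosome 4, 66827584 to 66930284), the receptor of lipopolysaccharide, had 4.73, 5.75, 6.52 and 5.10 CPM in the HDM libraries, against 7.14, 6.82, 6.26 and 5.97 CPM in the saline libraries. HDM replicate 3 reached into the saline range (log2 fold change −0.24, SE 0.12, edgeR adjusted p = 0.298). Transcripts of both genes have a low GC content, 40.0% for Tlr3 and 39.4% for Tlr4 beside a median of 49.5% over tested genes, and with that content corrected for, they had log2 fold changes of −0.13 and −0.17, while without saline replicate 1 they had −0.16 and −0.21.

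Tlr5 (ENSMUSG00000079164, chromosome 1, 182954788 to 182976044), the receptor of bacterial flagellin, had 0.879, 0.914, 1.63 and 1.32 CPM in the HDM libraries, against 1.66, 1.40, 1.81 and 2.24 CPM in the saline libraries. HDM was lower in 4 of 4 batches, and HDM replicate 3 lay within the saline range. Its log2 fold change was the largest in size of the 9, −0.58 (SE 0.23, 95% interval −1.09 to −0.077; unadjusted p = 0.027, edgeR adjusted p = 0.215), and stayed at −0.55 after the GC correction. It rested on 21 to 41 counts in the HDM libraries and 44 to 69 counts in the saline libraries. Tlr2 (ENSMUSG00000027995, chromosome 3, 83836272 to 83841767), which recognises bacterial lipoproteins, had 0.753, 0.647, 0.914 and 0.868 CPM in the HDM libraries, against 0.700, 1.02, 0.479 and 0.487 CPM in the saline libraries. The saline group held both extremes (log2 fold change 0.24, SE 0.29, edgeR adjusted p = 0.707). Its value was 0.52 without saline replicate 2 and 0.11 without saline replicate 3 or 4.

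Cd14, the surface protein that hands lipopolysaccharide to TLR4, had 1.42, 0.838, 1.15 and 1.13 CPM in the HDM libraries, against 1.40, 1.43, 1.13 and 1.17 CPM in the saline libraries. The groups overlapped, with HDM replicate 2 below every saline library (log2 fold change −0.18, SE 0.21, edgeR adjusted p = 0.705). Its value ran from −0.30 without HDM replicate 1 to −0.056 without HDM replicate 2. Cd14, Tlr2 and Tlr4 are known from macrophages, and the summed macrophage markers overlapped between the groups, at 83.8 ± 9.09 CPM in HDM and 86.0 ± 17.9 CPM in saline (SD, n = 4 each). Monocyte and neutrophil markers summed to 2.94 to 6.90 CPM in HDM and 3.66 to 8.80 CPM in saline.

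Myd88 (ENSMUSG00000032508, chromosome 9, 119335934 to 119341411) encodes the adaptor shared by most Toll-like receptors and the interleukin-1 receptor family. It had 13.8, 13.9, 13.0 and 13.2 CPM in the HDM libraries, against 14.1, 11.8, 10.9 and 10.4 CPM in the saline libraries. The 4 HDM libraries lay close together, above every saline library but replicate 1. The log2 fold change was 0.19 (SE 0.094, 95% interval −0.012 to 0.39; adjusted p of edgeR 0.304). Without saline replicate 1 it was 0.28, with an edgeR adjusted p of 0.0959. A stretch of 290 of its 2576 exonic bases overlaps Acaa1a on the other strand, and 381 of the 5207 of Tlr3 overlap an antisense gene with 0 to 4 counts per library; the strand setting of the counting is not given, so shared reads cannot be told apart. Acaa1a itself lay at 53.9 to 59.6 CPM in HDM, against 48.8 to 58.5 CPM in saline. Myd88 relative to Tlr3, on the RPKM scale, was 2.29 to 2.64 in the HDM libraries and 1.74 to 2.02 in the saline libraries, without overlap. This ratio was 1 of 3 computed and was chosen after the values were seen, so it is a description with no test.

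**Figure D4:**
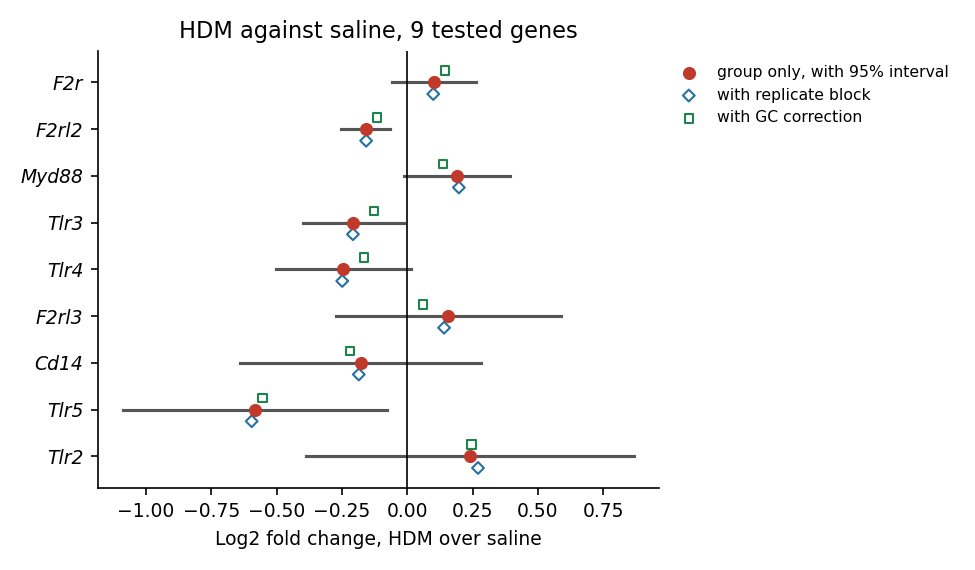
Log2 fold change, HDM over saline, of the 9 tested genes, ordered by level with the highest at the top. Filled points with 95% intervals are the group-only fit, diamonds the fit with the replicate block and squares the fit with the GC correction. Only F2rl2, Tlr3 and Tlr5 have intervals that leave out 0, and none of the 9 passed the adjusted threshold in the group-only fit.

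The surrounding pathway was described with 6 lists of 163 genes in all, of which 122 were tested. In the group-only fit 1 was called as higher in HDM and 0 as lower (edgeR), beside 1.23% and 0.159% of all tested genes, and with the block 4 were called as higher and 1 as lower, beside 3.01% and 1.03%. DESeq2, which gave an adjusted p for 88 of the 122, called the same 5 genes without the block, beside 871 of all 17618 tested genes. The median log2 fold change over the lists was −0.015.

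All 31 G proteins, effectors, arrestins and channels downstream of protease-activated receptors were tested. In edgeR 1 was called as higher and 0 as lower, beside 1.23% and 0.159% of all tested genes. The log2 fold change was positive in 17 and negative in 14 (median 0.017). An unadjusted p under 0.05 was found in 10 of the 31, beside 18.1% of all tested genes. Limma-voom called the same gene, and DESeq2 called 3. The gene was Plcb3, a phospholipase C that G proteins of the Gq family activate. Plcb3 had 697, 713, 645 and 718 CPM in the HDM libraries, against 582, 622, 581 and 605 CPM in the saline libraries. All HDM libraries lay above all saline ones (log2 fold change 0.21, SE 0.047; adjusted p of edgeR 0.0439 without and 0.016 with the block). After the GC correction it had 0.12 (adjusted p of edgeR 0.35), and over the fits that left out 1 library its adjusted p ran from 0.0244 without HDM replicate 3 to 0.177 without HDM replicate 2, with a call in the first of these alone. With RLE or upper quartile size factors Plcb3 was not called, and 22 of its 6960 exonic bases overlap Ppp1r14b on the other strand. With the block, and in DESeq2 without it, Gnai2 and Gna12, which encode G protein alpha subunits, were called as higher as well (adjusted p of edgeR 0.0381 and 0.0396, against 0.0902 and 0.103 without the block), with log2 fold changes of 0.15 and 0.19, and Gna12 also passed without saline replicate 4 (adjusted p of edgeR 0.0431). With the GC correction and no block they had 0.057 and 0.082. The summed sensory neuron markers were likewise higher in every HDM library than in any saline one, at 7325 ± 219 CPM in HDM and 6845 ± 122 CPM in saline (SD, n = 4 each), and their part in the higher levels of Plcb3, Gnai2 and Gna12 was not tested. Gna12 shares 456 of 3416 exonic bases with Amz1 on the other strand. In edgeR with no filter, Itpr2 of this list passed as lower in HDM (log2 fold change −0.52, adjusted p = 0.0219). In the main fit Itpr2 had −0.50 (adjusted p of edgeR 0.166), and −0.29 without saline replicate 1. Plcb3, Gnaq and Trpv1, a heat and capsaicin channel that PAR2 signalling is known to sensitise, had the highest levels of the list, at 92.7, 66.9 and 64.7 RPKM.

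Of 35 proteases that can cut these receptors, with their cofactors and inhibitors, 16 were tested. In edgeR and in limma-voom 0 were called (5 and 4 at an unadjusted p under 0.05), and DESeq2 called 1. Over all tested genes, edgeR called 1.38% and gave 18.1% an unadjusted p under 0.05. Serpine2, the gene of protease nexin-1, an inhibitor of thrombin, was called as lower with the block, in DESeq2 and in edgeR with no filter (adjusted p = 0.0328). It had 65.9, 66.2, 69.1 and 64.9 CPM in the HDM libraries, against 77.5, 72.5, 74.8 and 76.3 CPM in the saline libraries. The groups did not overlap (log2 fold change −0.18, SE 0.043; adjusted p of edgeR 0.0567, 0.0428 with the block and 0.261 after the GC correction). Satellite glia markers were also lower in HDM in 4 of 4 batches, at 476 ± 39.5 CPM in HDM and 530.3 ± 38.8 CPM in saline (SD, n = 4 each). Fibroblast markers averaged 633 CPM in HDM and 744 CPM in saline, and Schwann cell markers 2428 CPM in HDM and 2690 CPM in saline. The ranges of these 3 sums overlapped between the groups, and their part in the Serpine2 difference was not tested. With no filter Serpind1 of this list passed as well (log2 fold change −1.01, adjusted p of edgeR 0.00157). In the main fit Serpind1 had −0.997 (adjusted p of edgeR 0.188), and −0.44 without saline replicate 1. F2, the gene of prothrombin, had 5 counts over the HDM libraries and 4 over the saline libraries, so RNA of the protease that cuts PAR1 and PAR3 was barely detected in the ganglion itself. Tissue factor, the starter of coagulation encoded by F3, was at 54.0 ± 5.99 CPM in HDM and 55.1 ± 8.29 CPM in saline (SD, n = 4 each; edgeR adjusted p = 0.904). Tpsb2, a mast cell tryptase that can cut PAR2, was near the detection limit at 0.305 ± 0.0536 CPM in HDM and 0.603 ± 0.127 CPM in saline (SD, n = 4 each; log2 fold change −0.97, edgeR adjusted p = 0.128). The mast cell markers, which include Tpsb2, summed to 0.982 to 2.34 CPM in HDM and 1.62 to 3.50 CPM in saline. Htra1, a secreted serine protease, had the highest level of the list, 23.4 RPKM, and differed by 0.13 on the log2 scale (edgeR adjusted p = 0.185).

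Of 17 further Toll-like receptor and accessory genes 13 were tested. In edgeR, DESeq2 and limma-voom 0 were called (1 at an unadjusted p under 0.05 in each), though DESeq2 gave an adjusted p for 5 of them. For this list and the next, the edgeR shares of all tested genes were 1.38% called and 18.1% at an unadjusted p under 0.05. The other 8 Toll-like receptor genes lay between 0.015 and 0.57 RPKM, all below Tlr3 and Tlr4. Ly96, the gene of MD-2, averaged 1.90 ± 0.171 CPM in HDM, against 1.98 ± 0.328 CPM in saline (SD, n = 4 each; log2 fold change −0.058, edgeR adjusted p = 0.894). Lbp, which carries lipopolysaccharide to CD14, had the smallest p (log2 fold change −0.36, SE 0.15; adjusted p of edgeR 0.239), and its value was −0.19 without saline replicate 1. Hsp90b1, a chaperone that folds Toll-like receptors among many other proteins, was the most abundant at 119 RPKM (log2 fold change 0.036). Of 14 other genes of pattern sensors and their signalling partners 9 were tested. In the same 3 tools 0 were called (0 at an unadjusted p under 0.05 in each), with an adjusted p for 4 in DESeq2. Fcer1g, Nod1 and Ddx58 had the smallest p, at log2 fold changes of −0.38, −0.11 and 0.080. Without saline replicate 1, Fcer1g had −0.20 and Nod1 −0.045, and without HDM replicate 1, Ddx58 had 0.00059.

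Among 42 adaptors, kinases and transcription factors of Toll-like receptor signalling 41 were tested. In edgeR and limma-voom 0 were called (7 and 6 at an unadjusted p under 0.05), and DESeq2 called 1. For this list and that of the induced transcripts below, edgeR called 1.38% of all tested genes, and 18.1% had an unadjusted p under 0.05. Irf7, an interferon-inducible transcription factor, was called as higher with the block, in DESeq2 and in edgeR with no filter (adjusted p = 0.0329). It had 7.91, 6.43, 5.44 and 8.00 CPM in the HDM libraries, against 5.34, 5.48, 4.14 and 4.74 CPM in the saline libraries. HDM replicate 3 alone reached into the saline range (log2 fold change 0.50, SE 0.14; adjusted p of edgeR 0.0939, 0.0499 with the block and 0.263 after the GC correction), and Irf7 passed without that library (adjusted p = 0.038). Map3k7 (TAK1), a kinase between TRAF6 and NF-kB, and its partner Tab3 had −0.12 and −0.16 (edgeR adjusted p = 0.15 and 0.173). Of 26 transcripts that Toll-like receptors and NF-kB induce, 14 were tested and 0 were called in edgeR, DESeq2, which gave an adjusted p for 6, and limma-voom (0 at an unadjusted p under 0.05 in each), with a median log2 fold change of −0.079. Nfkbia, an inhibitor of NF-kB that NF-kB itself induces and the most abundant of them, averaged 35.0 ± 3.77 CPM in HDM, against 34.8 ± 3.90 CPM in saline (SD, n = 4 each; log2 fold change 0.009, edgeR adjusted p = 0.972). The cytokine genes Tnf, Il6 and Il1b had 5, 6 and 4 counts over the 4 HDM libraries and 2, 6 and 11 counts over the 4 saline libraries.

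**Figure D5:**
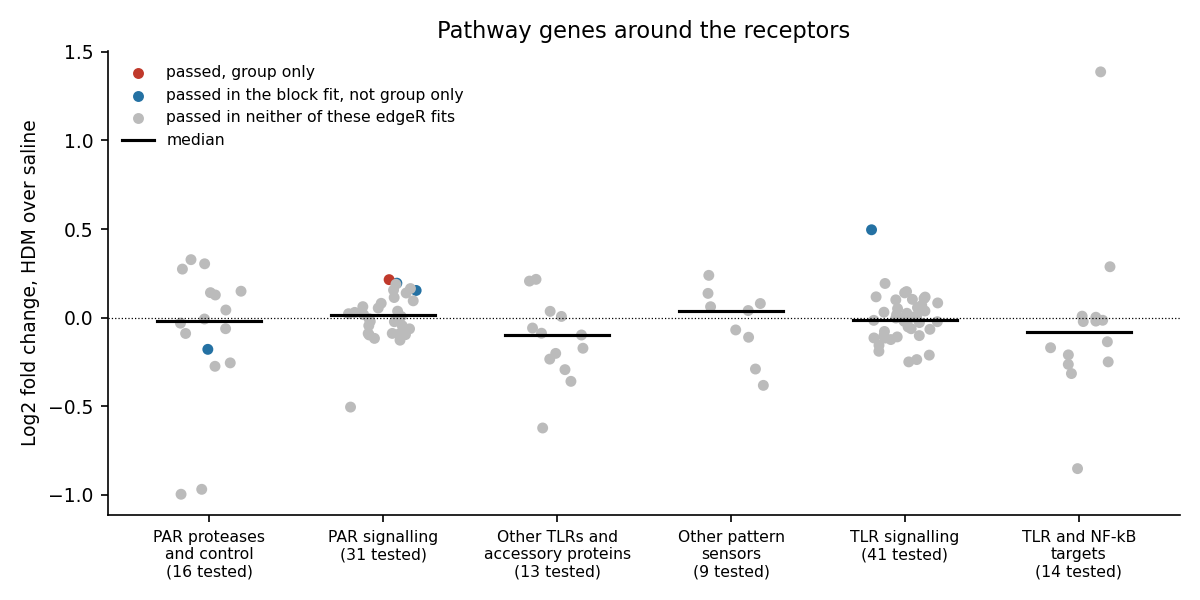
Log2 fold change, HDM over saline, of the tested genes of each pathway list, 1 point a gene, with the list median as a bar. The medians lie between −0.098 and 0.040, Plcb3 is the gene called in the group-only edgeR fit, and 4 more passed with the replicate block (coloured), the same 4 that DESeq2 called without it.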

How the data were processed

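RNA of pooled vagal ganglia was sequenced on an Illumina NovaSeq instrument after a stranded mRNA kit, per the labels' protocols. The deposited values are counts, whole numbers per gene made with featureCounts on GRCm38 (mm10), per the submitters' processing notes, from 1 merged alignment file per library, per the file headers. The sources used here do not name the aligner, the versions or the strand setting. Gene lengths are the deposited exonic lengths, in bases. Columns were mapped to samples by the column names in the labels, and no 2 columns were identical.

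Symbols, overlaps and GC content of the longest transcript come from GENCODE release M21 (GRCm38), where 54899 of the 55335 genes had the same span. The filter filterByExpr (edgeR 4.0.16, R 4.3.3) left 17618 genes, which were scaled by TMM and tested with glmQLFTest, 2-sided, with group as the only term. SE is the log2 fold change over the square root of F. RPKM divides CPM by deposited length. Alternatives were other size factors and filters, DESeq2 1.42.0, limma-voom (limma 3.58.1), the replicate block, a GC offset (a spline with 4 degrees of freedom fitted above a mean log2 CPM of 3), both together, a threshold of 0.10, and leaving out each library.

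The batch in the labels equals the replicate number, which pairs the libraries. In the data, deviations of same-numbered libraries correlated by −0.048 to 0.039 over genes. Counts of batches in which HDM was lower are descriptions, with no share of all tested genes given beside them. The fits were tested on simulated counts. A count of 0 allows up to 3 counts per library, which covers counting error only. The genes and lists were chosen with earlier results of these data known. Pathway genes were named if called in either fit or among the 3 smallest p or 3 highest levels of a list. F2, Serpind1, Itpr2, Ly96, Tnf, Il6 and Il1b were named after their values were seen. Promoters come from RefSeq tables, and those of 7 of the 10 genes were searched. Entries on chromosome 18, where Cd14 lies, were left out for these genes. 1 marker of the neuron list is not reported here.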

Additional observations from a re-analysis of the deposited data

Results flagged for a closer look

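In 28 named genes, each group of 4 libraries was checked for a library far from the others, and 6 of 56 groups had one, where chance gives about 1 in 20. None was one of the 10 receptor, co-receptor and adaptor genes. The flags were not independent, as most fell in saline replicate 1, so their number cannot be judged against that rate. In saline replicate 1, Lbp was at 17.0 CPM, against 10.8 to 11.8 CPM in the other saline libraries. The same library had 6.44 CPM of Cd36 (others 4.45 to 4.64 CPM), 4.27 CPM of Fcer1g (others 2.63 to 2.77 CPM) and 1.91 CPM of Ptgs2 (others 0.445 to 0.519 CPM). In HDM replicate 1, Lcn2 was at 5.02 CPM, against 0.381 to 1.06 CPM in the other HDM libraries, and its log2 fold change was 0.073 without it. In HDM replicate 4, Cd180 was at 0.566 CPM, against 0.335 to 0.358 CPM in the others.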

How the results depend on the processing

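Over 16 or 17 alternatives each, the log2 fold changes of the 9 tested genes kept their sign. F2rl2 ran from −0.19 to −0.12 and passed in DESeq2 and with the replicate block (adjusted p = 0.0231 and 0.0433). The other 8 passed in no alternative that gave an adjusted p (DESeq2 gave none for F2rl3, Tlr2, Tlr5 and Cd14). Tlr5 ran from −0.77 to −0.45, Tlr3 from −0.26 to −0.13, Tlr4 from −0.33 to −0.17 and Cd14 from −0.30 to −0.056. Myd88 ran from 0.13 to 0.28, F2r from 0.053 to 0.17, F2rl3 from 0.046 to 0.31 and Tlr2 from 0.11 to 0.52. Of the 9 genes 0 were called in the main fit, and 1 in DESeq2, with the block and at a threshold of 0.10. Of all tested genes 244 were called, against 722 with no filter, 871 in DESeq2, 713 with the block, 709 at 0.10, 0 with the GC correction (2051 at an unadjusted p under 0.05), 29 with block and GC correction, and 0 to 376 without 1 library. Of the pathway genes 1 was called, against 6 with no filter, 5 in DESeq2 and with the block, 4 at 0.10, 0 with RLE or upper quartile factors or with the GC correction, alone or with the block, and 0 to 2 without 1 library. The causes were not tested. Tlr2, Tlr5, Cd14, F2rl3 and F2rl1 lay at 69 counts or fewer per library, which limits what can be detected.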
